A study of Mus musculus with 9 samples.

Results

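Translation initiation factors bring the small ribosomal subunit, the initiator tRNA and an mRNA together at a start codon. In the eIF4F complex, eIF4E binds the cap of the mRNA, eIF4G is the scaffold and eIF4A is the RNA helicase. The mRNA is loaded onto a small subunit that carries eIF1, eIF1A, eIF3, eIF5 and the ternary complex of eIF2, GTP and initiator tRNA. The eIF4E-binding proteins (4E-BPs) hold eIF4E back until mTORC1 phosphorylates them, and eIF2B recharges eIF2 with GTP. T cells make little protein at rest and raise protein synthesis when antigen activates them. The genes described here are those with symbols from Eif1 to Eif6, without the eIF2 kinases, whose symbols begin with Eif2ak, and without the Y-linked Eif2s3y. They are 50 of the 24060 genes in the expression table. Of these, 49 had a maximum TPM (a level corrected for transcript length, with the same total in every library) above 1 and were tested among 11330 genes. Eif4e1b, an oocyte form of eIF4E, was the exception and was listed at 0 in all 9 libraries, as was Eif2s3y.

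The RNA came from CD8 T cells of the transnuclear mouse lines R7-I, R7-II and R7-III, each raised from the nucleus of a single T cell specific for the ROP7 protein of Toxoplasma gondii, so that each line stands for 1 T cell receptor. All lines were on a BALB/c background with intact Rag2; age and sex were not given in the sources used here. Spleen cells were cultured overnight in IL-2 (10 ng/ml) with the ROP7 peptide at 10 µM, and cells positive for CD3, CD8 and the H-2Ld-Rop7 tetramer were sorted to a purity of 90 to 95%. Each clone has 3 libraries, labelled as biological replicates, and the tests measure the spread between these. By the labels, affinity for the peptide falls in the order R7-I, R7-III, R7-II and self-reactivity in the order R7-III, R7-I, R7-II, so the comparisons ask how the mRNAs of the initiation machinery differ between activated cells whose receptors bind the same antigen with different strength. R7-II is last in both orders, so affinity, self-reactivity and degree of activation cannot be told apart in its comparisons. Clone and mouse line cannot be told apart in any of them.

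These mRNAs were abundant in every clone. Summed over the 50 genes they made up 2.03% ± 0.0153 (SD, n = 3) of all TPM in R7-I, 1.80% ± 0.00102 in R7-II and 1.97% ± 0.0248 in R7-III. As means over the 9 libraries, 38 genes had a TPM of at least 100, 3 were at or above 1000 and 4 were below 20. Eif5a led with a mean TPM of 3308, followed by Eif4a1 with 2142 and Eif1 with 1150.0. These 3 genes held 35.1% ± 0.0644 of the summed TPM in R7-I, 32.9% ± 0.334 in R7-II and 34.5% ± 0.162 in R7-III. The lowest detected genes were Eif4ebp3, Eif4e3 and Eif5a2, at mean TPM of 16.3, 6.13 and 5.61.

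R7-II stood apart from both other clones, mostly through lower levels. With limma on log2(TPM + 1) and an adjusted p of 0.01, 24 of the 49 genes were lower in R7-II when set against R7-I (49.0%, against 15.5% of all genes tested) and 5 were higher (10.2%, against 40.6%). Between R7-II and R7-III, 22 were lower in R7-II (44.9%, against 18% of all genes) and 7 were higher (14.3%, against 35.6%). The median log2 fold change of the 49 genes was -0.12 in either comparison, while all genes tested had medians of 0.17 (against R7-I) and 0.12 (against R7-III). These comparisons share the R7-II libraries. In both of them 22 genes were lower in R7-II (44.9%, against 12.8% of all genes tested): Eif1a, Eif1ad, Eif1ax, Eif2b1, Eif2b3, Eif2s1, Eif2s2, Eif2s3x, Eif3a, Eif3b, Eif3c, Eif3g, Eif3i, Eif3l, Eif4a1, Eif4e, Eif4e2, Eif4ebp1, Eif4g1, Eif4h, Eif5a and Eif6. Eif4a2, Eif4b, Eif4e3 and Eif4g3 were higher in both (8.16%, against 31.9%).

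The shift of the all-gene median in R7-II bears on the direction of small changes. When each library was divided by a median-of-ratios factor, which brings the median log2 fold change of all genes to 0.01 against R7-I and to 0.00 against R7-III, 37 genes were lower than in R7-I (28.5% of all genes) and 1 was higher (26% of all genes). Against R7-III, 34 were lower (27.8% of all genes) and 2 were higher (25.6% of all genes). The medians of the 49 genes were then -0.30 and -0.25. So the lower levels of R7-II were found on either scale, while of the 4 genes higher in both comparisons by TPM only Eif4e3 was higher in both after this scaling.

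R7-III and R7-I differed less than either did from R7-II, and on both scales every gene that passed was lower in R7-III. By limma, 2 genes were lower in R7-III (4.08%, against 1.45% of all genes tested) and 0 were higher (against 6.96%). At an unadjusted p under 0.05, 12 of the 49 were lower and 5 higher, where 8.51% and 23.8% of all genes were. With median-of-ratios scaling 9 were lower (18.4%, against 3.44% of all genes) and 0 higher (against 4.95%). These 9 were Eif2a, Eif2b3, Eif2s1, Eif2s2, Eif3b, Eif3e, Eif4a1, Eif4e and Eif5. On that scale 40 of the 49 genes lay below 0.

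**Figure D1:**
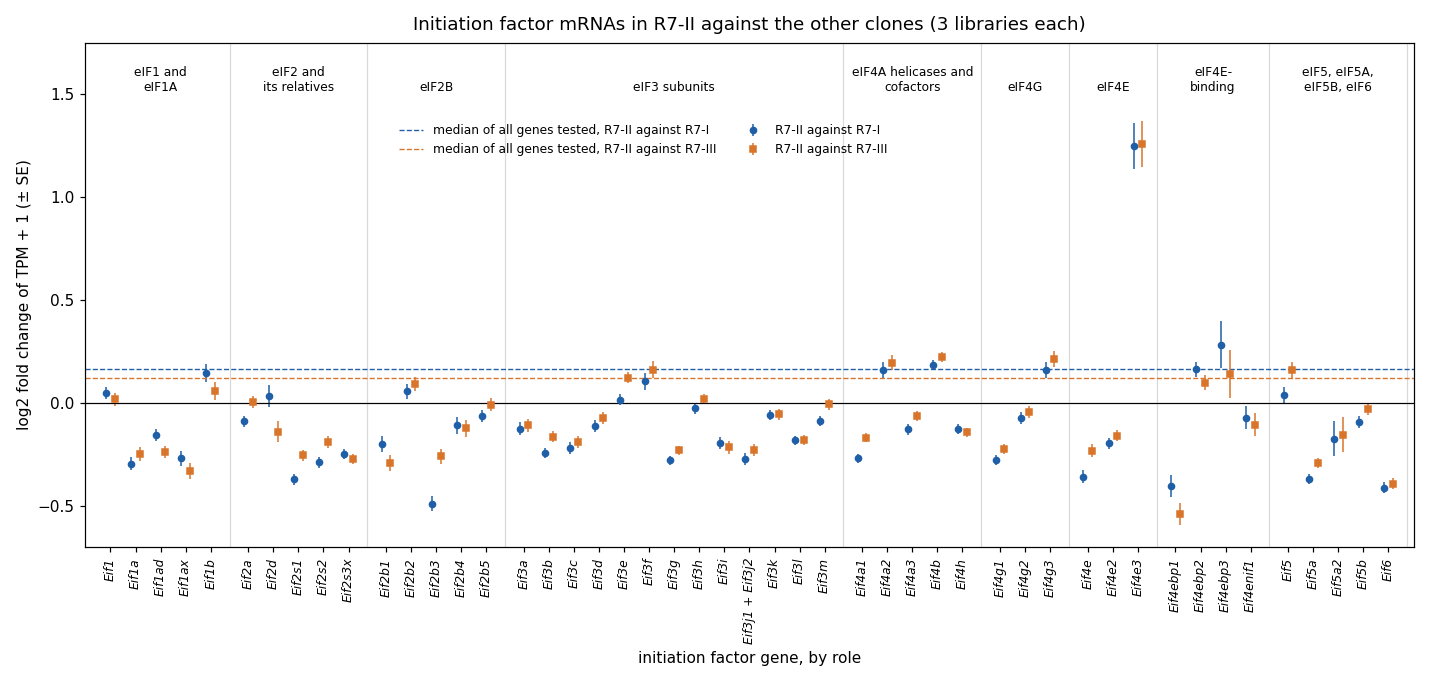
Log2 fold change of TPM + 1 with its standard error for each initiation factor gene, grouped by role, for R7-II against R7-I (circles) and against R7-III (squares), 3 libraries a clone; dashed lines are the medians of all genes tested, 0.17 and 0.12. Eif3j1 and Eif3j2 are shown as their sum, most genes lie below 0 and below the dashed lines, and Eif4e3 lies at 1.25 and 1.26. After median-of-ratios scaling several genes just above 0 turn below it; of those that passed as higher, these are Eif4a2, Eif4ebp2 and Eif4g3 against R7-I and Eif3e against R7-III.

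Among eIF1 and eIF1A, which keep the scanning subunit open and set the accuracy of start codon choice, 3 of 5 genes were lower in R7-II in each comparison (all genes tested: 15.5% and 18%) and 0 were higher (40.6% and 35.6%). After median-of-ratios scaling 4 were lower in each (all genes: 28.5% and 27.8%). Eif1ax, the X-linked gene of eIF1A, had TPM of 322, 320.1 and 336 in R7-I, 255, 276 and 280.3 in R7-II and 347, 341 and 332 in R7-III. The R7-II libraries were all below the others, with log2 fold changes of -0.27 against R7-I (adjusted p = 0.000106) and -0.33 against R7-III (adjusted p = 2.64e-05). Eif1a, its copy on an autosome, had TPM of 151, 148 and 149 in R7-I, 122, 124 and 119 in R7-II and 142, 141 and 151 in R7-III. It was lowest in R7-II as well, by -0.29 and -0.25 (adjusted p = 2.04e-05 and 7.4e-05). Eif1, the most abundant gene of this group, had TPM of 1122, 1101 and 1166 in R7-I, 1195, 1166 and 1143 in R7-II and 1136, 1139 and 1187 in R7-III. Its ranges overlapped in all 3 clones. By TPM it passed no test, with 0.05 and 0.02, and after median-of-ratios scaling it turned to -0.13 and -0.11 and was lower in R7-II (adjusted p = 0.00299 and 0.00739). With quantile normalization it was instead higher than in R7-I (0.15, adjusted p = 0.00184), so its direction depends on the scale.

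The 3 subunits of eIF2, the GTPase that delivers the initiator tRNA, were lower in R7-II in both comparisons (12.8% of all genes tested). Eif2s1 encodes the alpha subunit, whose phosphorylation by the eIF2 kinases slows initiation. Its TPM was 210.1, 208 and 213 in R7-I, 163, 159 and 166 in R7-II and 194, 192 and 196 in R7-III. The clones did not overlap, and R7-II was lower by a log2 fold change of -0.37 against R7-I (adjusted p = 1.11e-06) and -0.25 against R7-III (adjusted p = 1.58e-05). R7-III against R7-I gave -0.12 and did not pass by TPM (adjusted p = 0.0143). It passed after median-of-ratios scaling (-0.17, adjusted p = 0.0021). The X-linked Eif2s3x, which encodes the gamma subunit and was the most abundant of this group, had TPM of 509, 504 and 518 in R7-I, 430.0, 440 and 419 in R7-II and 520.3, 511 and 524 in R7-III. Here only R7-II stood apart (-0.25 and -0.27, adjusted p = 1.2e-05 and 6.87e-06). Eif2s2, the beta subunit, changed by -0.29 and -0.19 (adjusted p = 9.29e-06 and 0.000207). Eif2a and Eif2d, which can place initiator tRNA without eIF2, passed in neither comparison by TPM. After median-of-ratios scaling Eif2a was lower in R7-II in both, by -0.26 against R7-I and, turning from 0.00, by -0.12 against R7-III (adjusted p = 2.31e-05 and 0.00373), and Eif2d was lower against R7-III (-0.26, adjusted p = 0.00426) and turned from 0.03 to -0.14 against R7-I without passing. Beside these X-linked genes, Xist lay between 124 and 187 TPM in the 9 libraries, Ddx3y and Kdm5d were listed at 0 in all of them and Uty reached at most 0.09, so these Y-linked genes were absent or nearly so in every library. Xist was higher than in R7-I by 0.25 in R7-II (adjusted p = 0.00398) and 0.42 in R7-III (adjusted p = 0.00111). After median-of-ratios scaling the first did not pass (0.08), and Xist was lower in R7-II than in R7-III (-0.30, adjusted p = 0.000917).

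Of the 5 subunits of eIF2B, 2 were lower in R7-II in each comparison (all genes tested: 15.5% and 18%) and 0 were higher (40.6% and 35.6%). After median-of-ratios scaling 4 were lower in each (all genes: 28.5% and 27.8%). Eif2b3, the gamma subunit and part of the catalytic side of the complex, had TPM of 105, 105 and 97.9 in R7-I, 71.7, 71.4 and 75.6 in R7-II and 88.1, 87.5 and 86.6 in R7-III. All clones were separate, in the order R7-I, R7-III, R7-II. R7-II against R7-I gave -0.49 ± 0.0381 (SE, adjusted p = 1.71e-06), the largest fall past the threshold in that comparison, R7-II against R7-III gave -0.26 (adjusted p = 0.000154) and R7-III against R7-I gave -0.23 (adjusted p = 0.00252). The last call was lost without R7-I replicate 1 or 2 or any 1 R7-III library (adjusted p up to 0.0159). Eif2b1, the regulatory alpha subunit, had TPM of 85.3, 84.4 and 84.6 in R7-I, 74.2, 75.5 and 71.6 in R7-II and 90.8, 86.5 and 94.4 in R7-III. It was again lowest in R7-II, by -0.20 and -0.29 (adjusted p = 0.000876 and 6.42e-05). Eif2b5, which encodes the catalytic epsilon subunit, was the most abundant of the complex, with TPM of 141, 142 and 148 in R7-I, 139, 136 and 139 in R7-II and 138, 136 and 141 in R7-III. It passed no test by TPM, and after median-of-ratios scaling it was lower in R7-II by -0.24 and -0.13 (adjusted p = 2.74e-05 and 0.00136). The ratio of Eif2b5 to Eif2b3, which dividing each library by a factor cannot move, was 1.41 ± 0.0944 (SD, n = 3) in R7-I, 1.89 ± 0.0487 in R7-II and 1.58 ± 0.0405 in R7-III.

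The 12 subunits of eIF3 other than eIF3j were expressed within a narrow range. In R7-I their means ran from a TPM of 417 (Eif3m) to 757 (Eif3c), in R7-II from 391 (Eif3a) to 650.3 (Eif3c) and in R7-III from 394 (Eif3m) to 741 (Eif3c). Counting 14 genes with Eif3j1 and Eif3j2, 7 were lower in R7-II and 0 higher when set against R7-I (all genes: 15.5% and 40.6%), and 6 were lower and 2 higher when set against R7-III (18% and 35.6%). After median-of-ratios scaling 11 and 9 were lower (all genes: 28.5% and 27.8%) and 0 were higher (26% and 25.6%). Eif3c, part of the core of the complex, had TPM of 766, 734 and 771 in R7-I, 671, 633 and 647 in R7-II and 738, 733 and 751 in R7-III. R7-II was below all other libraries (-0.22 and -0.19, adjusted p = 6.69e-05 and 0.000213), and the second call was lost with quantile normalization (-0.07, adjusted p = 0.0468). Eif3g, an RNA-binding subunit, changed by -0.28 and -0.23 (adjusted p = 2.2e-06 and 8.69e-06). Eif3e and Eif3f were the 2 genes higher than in R7-III, by 0.12 and 0.16 (adjusted p = 0.00141 and 0.00487), and neither passed after median-of-ratios scaling, where Eif3e turned to -0.0027. The call of Eif3f was also lost when any 1 R7-II library, or replicate 1 or 2 of R7-III, was left out (adjusted p up to 0.0239). Eif3a, the largest subunit, was near the threshold in both comparisons (adjusted p = 0.00419 and 0.00994) and lost the first call without replicate 1 or 2 of R7-I or replicate 2 or 3 of R7-II (adjusted p up to 0.0192), and the second without any 1 library but R7-II replicate 1 (adjusted p up to 0.0325) and with the replicate block. By TPM Eif3d, which can bind caps itself, was lower only against R7-I (-0.11, adjusted p = 0.00564), a call lost without R7-I replicate 2 or 3 or R7-II replicate 2 or 3 (adjusted p up to 0.0271) and with the replicate block, while after median-of-ratios scaling it was lower in both (-0.29 and -0.20, adjusted p = 4.66e-06 and 5.8e-05).

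The eIF3j subunit, which sits near the decoding site, is encoded by a pair of near-identical genes on different chromosomes. Of the 100-base windows in Eif3j2 transcripts, 84.0% also occurred in Eif3j1 transcripts. Of those in Eif3j1 transcripts, 36.0% occurred in Eif3j2 and 11.8% in Spg11, which could also share reads with the pair. Eif3j1 was given TPM of 68.6, 23.1 and 0.02 in R7-I, 27.9, 86.7 and 30.2 in R7-II and 86.2, 94.9 and 50.6 in R7-III. Eif3j2 was given 123, 169 and 192 in R7-I, 135, 66.9 and 129.8 in R7-II and 99.1, 88.7 and 138 in R7-III. The values of the pair ran opposite to each other from library to library, and neither passed a test. Their sum was steady, at 192, 192 and 192 in R7-I, 163, 154 and 160.0 in R7-II and 185, 184 and 189 in R7-III. As a sum, a choice made after the values were seen, they were lower in R7-II by -0.27 against R7-I (adjusted p = 1.5e-05) and -0.23 against R7-III (adjusted p = 5.75e-05). The levels of the single genes are therefore uncertain. No other pair of initiation factor genes shared such a window; Eif5b shared 15.0% of its windows with the neighbouring Rev1 and Eif1ad 13.4% with Banf1, so reads there may be split too.

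Of the 5 genes of eIF4A helicases and cofactors, 3 were lower and 2 higher in R7-II against R7-I (all genes: 15.5% and 40.6%). Against R7-III 2 were lower and 2 higher (18% and 35.6%). After median-of-ratios scaling 3 were lower in each (28.5% and 27.8%), with 0 and 1 higher (26% and 25.6%). The paralogs Eif4a1 and Eif4a2 moved in opposite directions by TPM. Eif4a1, the main eIF4A, had TPM of 2328, 2335 and 2318 in R7-I, 1918, 1927 and 1948 in R7-II and 2153, 2139.6 and 2215 in R7-III. The clones did not overlap, and R7-II was lower by -0.27 against R7-I (adjusted p = 1.71e-06) and -0.17 against R7-III (adjusted p = 4.96e-05). R7-III was lower than R7-I by -0.10 (adjusted p = 0.00811), a call lost without any 1 R7-I library, R7-II replicate 3 or R7-III replicate 1 or 2 (adjusted p up to 0.0423) and with the replicate block. Eif4a2, the paralog that has been linked to translational repression, had TPM of 376, 368 and 374 in R7-I, 438, 392 and 421 in R7-II and 362, 355 and 373 in R7-III. It was higher in R7-II by 0.16 and 0.20 (adjusted p = 0.00341 and 0.000993), but by -0.02 and 0.07 after median-of-ratios scaling, with neither past the threshold, and the first call was lost without R7-I replicate 2 or 3 or R7-II replicate 1 or 3 (adjusted p up to 0.0146). Its share of the pair, which is free of the scaling, was 13.8% ± 0.159 (SD, n = 3) in R7-I, 17.7% ± 0.835 in R7-II and 14.4% ± 0.103 in R7-III. Eif4a3, the remaining Eif4a gene, was lower against R7-I (-0.13, adjusted p = 0.000994), a call lost with quantile normalization (adjusted p = 0.0284). Against R7-III it did not pass (-0.06, adjusted p = 0.0415). After median-of-ratios scaling it was lower in both (-0.30 and -0.19, adjusted p = 2e-05 and 0.000485). Eif4b, a cofactor that raises helicase activity, had TPM of 483, 476 and 489.5 in R7-I, 553, 541 and 555 in R7-II and 469, 469 and 474 in R7-III. The R7-II libraries were the highest, by 0.19 and 0.22 (adjusted p = 3.8e-05 and 1.1e-05), and after median-of-ratios scaling by 0.01 and 0.10, of which only the second passed (adjusted p = 0.00479). Eif4h, the other cofactor, was lower by -0.13 and -0.14 (adjusted p = 0.000663 and 0.000295), the first of which was lost with quantile normalization (-0.08, adjusted p = 0.0117).

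The eIF4G scaffolds showed a similar split. Eif4g1, the main scaffold, had TPM of 456, 459 and 449.9 in R7-I, 378, 368 and 381 in R7-II and 436, 433 and 448 in R7-III, and was lower in R7-II by -0.28 and -0.22 (adjusted p = 4.46e-06 and 2.12e-05). Eif4g3, its paralog, had TPM of 94.8, 96.0 and 96.1 in R7-I, 111, 101 and 109 in R7-II and 91.5, 92.1 and 92.4 in R7-III. It was higher in R7-II by 0.16 and 0.22 (adjusted p = 0.00343 and 0.000537), and by -0.01 and 0.09 without passing after median-of-ratios scaling. The first call was also lost without R7-I replicate 1 or 2 or R7-II replicate 1 or 3 (adjusted p up to 0.0148). As a share of the pair Eif4g3 made up 17.4% ± 0.209 (SD, n = 3) in R7-I, 22.2% ± 0.638 in R7-II and 17.3% ± 0.225 in R7-III. Eif4g2, which lacks the eIF4E-binding site and was the most abundant of the 3 over the 9 libraries, though not in R7-I, had TPM of 445, 452 and 462 in R7-I, 442, 426 and 425 in R7-II and 438, 435 and 460.1 in R7-III. It passed no test by TPM, and after median-of-ratios scaling it was lower in R7-II by -0.25 and -0.17 (adjusted p = 1.56e-05 and 0.000208).

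The cap-binding proteins included the largest change past the threshold. Eif4e, the factor that binds the cap for eIF4F, had TPM of 188, 184 and 192 in R7-I, 149, 143 and 148 in R7-II and 174, 167 and 176 in R7-III. The clones did not overlap, and R7-II was lower by -0.36 against R7-I (adjusted p = 4.98e-06) and -0.23 against R7-III (adjusted p = 0.000114). R7-III against R7-I gave -0.13 and did not pass by TPM (adjusted p = 0.0228). It passed after median-of-ratios scaling (-0.175, adjusted p = 0.00276). Eif4e2, a homolog that binds caps without joining eIF4G well, changed by -0.20 and -0.16 (adjusted p = 9.29e-05 and 0.00041). Eif4e3, an atypical homolog, had TPM of 4.15, 3.37 and 4.13 in R7-I, 8.83, 11.4 and 11.8 in R7-II and 3.91, 3.62 and 3.99 in R7-III. It was higher in R7-II by 1.25 ± 0.111 (SE, adjusted p = 4.13e-06) against R7-I and 1.26 ± 0.111 (adjusted p = 4.03e-06) against R7-III, and its calls held in every alternative run. The gene stayed scarce: it made up 4.04% ± 0.614 (SD, n = 3) of the summed Eif4e, Eif4e2 and Eif4e3 TPM in R7-II, against 1.24% ± 0.129 in R7-I and 1.30% ± 0.0411 in R7-III.

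The 4E-BP genes changed in composition. Eif4ebp1 had TPM of 193, 169 and 179 in R7-I, 142, 126 and 140.4 in R7-II and 197, 199.7 and 197 in R7-III. The R7-II libraries were the lowest, by -0.40 against R7-I (adjusted p = 7.32e-05) and -0.54 ± 0.0537 (SE, adjusted p = 9.92e-06) against R7-III, the largest fall past the threshold in that comparison. Eif4ebp2 had TPM of 145, 149 and 146 in R7-I, 169, 159.9 and 166 in R7-II and 150.4, 149.6 and 162 in R7-III. It was higher than in R7-I by 0.16 (adjusted p = 0.00231), a call lost without R7-I replicate 1 (adjusted p = 0.011) and a value of -0.01 after median-of-ratios scaling, and against R7-III it did not pass. The ratio of Eif4ebp2 to Eif4ebp1 was 0.817 ± 0.0660 (SD, n = 3) in R7-I, 1.21 ± 0.0482 in R7-II and 0.777 ± 0.0377 in R7-III. Eif4ebp1 was thus the more abundant in R7-I and R7-III, and Eif4ebp2 in R7-II. The 3 4E-BP genes together, set against Eif4e, gave a ratio of 1.82 ± 0.0661 in R7-I, 2.18 ± 0.0465 in R7-II and 2.14 ± 0.0559 in R7-III, so R7-I had the lowest value and R7-II and R7-III overlapped. Eif4ebp3 passed in no comparison, and Eif4enif1, which carries eIF4E into the nucleus, only after median-of-ratios scaling, where it was lower in R7-II by -0.25 and -0.23 (adjusted p = 0.00551 and 0.00792).

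**Figure D2:**
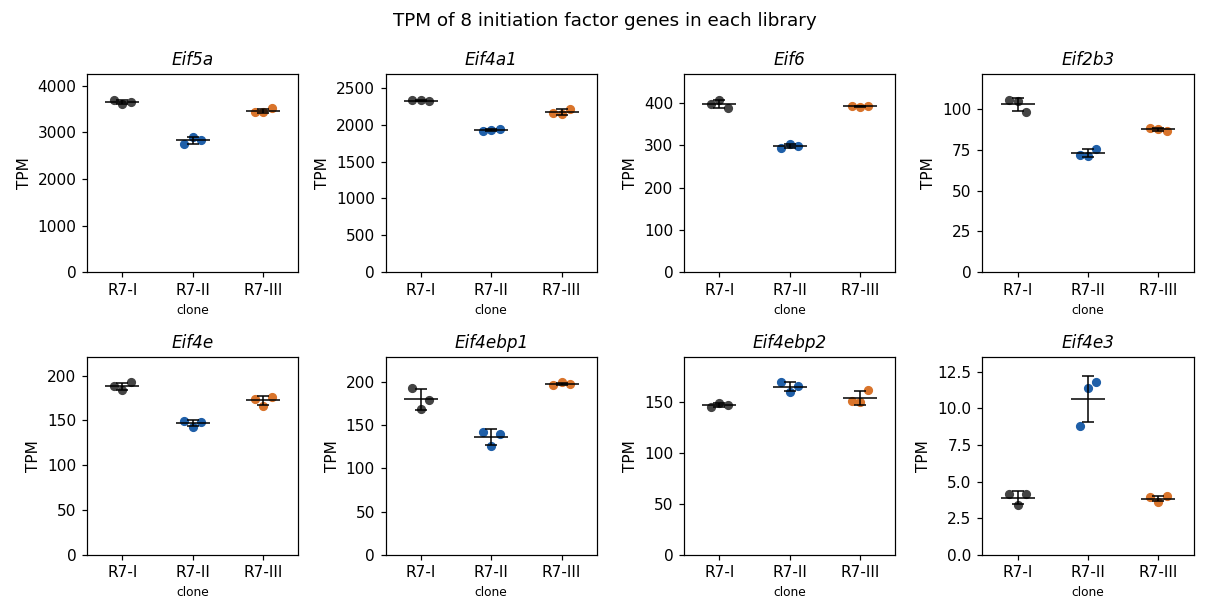
TPM of 8 initiation factor genes in each of the 9 libraries, with the mean and SD of each clone as black lines; every axis starts at 0. Eif5a, Eif4a1, Eif6, Eif2b3, Eif4e and Eif4ebp1 were lowest in R7-II, while Eif4e3 lay between 8.83 and 11.8 in R7-II and at or below 4.15 elsewhere; Eif4ebp2 was higher in R7-II against R7-I by TPM and turned to -0.01 on the log2 scale after median-of-ratios scaling.

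Among the factors of subunit joining and beyond, Eif5a and Eif6 were lower in R7-II in both comparisons (12.8% of all genes tested). Eif5a encodes the hypusine-carrying factor that helps the ribosome through difficult peptide bonds, and was the most abundant of the initiation factor genes. Its TPM was 3690.2, 3595 and 3648 in R7-I, 2750.35, 2896 and 2832 in R7-II and 3423, 3426 and 3508 in R7-III. R7-II was lower by -0.37 against R7-I (adjusted p = 6.03e-07) and -0.29 against R7-III (adjusted p = 2.94e-06). It accounted for 18.0% ± 0.142 (SD, n = 3) of the summed initiation factor TPM in R7-I, 15.7% ± 0.398 in R7-II and 17.6% ± 0.0393 in R7-III. Eif6, which keeps large subunits from joining too early and takes part in their assembly, had TPM of 396, 407 and 388 in R7-I, 294, 304 and 297 in R7-II and 391, 389.8 and 393 in R7-III. Only R7-II stood apart, by -0.41 ± 0.0258 (SE, adjusted p = 3.99e-07) and -0.39 ± 0.0258 (adjusted p = 5.25e-07). Eif5, which triggers GTP hydrolysis by eIF2, was 0.16 higher than in R7-III (adjusted p = 0.00532), a call lost without R7-II replicate 1 or 3 or R7-III replicate 1 or 2 (adjusted p up to 0.0253) and after median-of-ratios scaling (0.03). Eif5b and Eif5a2 passed in no comparison by TPM. After median-of-ratios scaling all 5 genes of this group were lower in R7-II against R7-I (28.5% of all genes), Eif5b by -0.27 (adjusted p = 8.55e-06) and Eif5a2 by -0.32 (adjusted p = 0.00374). Against R7-III 3 were lower (27.8% of all genes), Eif5b among them (-0.16, adjusted p = 0.00033).

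Among 30 regulators and partners of initiation, 12 were higher and 7 lower in R7-II with R7-I as reference (all genes: 40.6% and 15.5%), 9 and 8 with R7-III as reference (35.6% and 18%), and 2 and 1 in R7-III against R7-I (6.96% and 1.45%). After median-of-ratios scaling the splits were 6 higher and 12 lower (all genes: 26% and 28.5%), 8 higher and 13 lower (25.6% and 27.8%), and 0 higher and 4 lower (4.95% and 3.44%). Pdcd4, an inhibitor of eIF4A, had TPM of 37.5, 36.1 and 39.3 in R7-I, 93.6, 85.0 and 88.9 in R7-II and 42.1, 43.1 and 39.5 in R7-III. It was higher in R7-II by 1.22 and 1.08 (adjusted p = 3.76e-08 and 8.33e-08). Paip2, which takes poly(A)-binding protein away from eIF4G, had TPM of 83.7, 79.7 and 88.0 in R7-I, 183, 171 and 166 in R7-II and 94.2, 101 and 105 in R7-III, and was higher by 1.04 and 0.79 (adjusted p = 1.01e-07 and 5.44e-07). Eif2ak3, the eIF2 kinase of the endoplasmic reticulum known as PERK, had TPM of 8.69, 7.13 and 7.47 in R7-I, 15.8, 12.8 and 14.5 in R7-II and 7.72, 7.20 and 7.40 in R7-III, and was higher by 0.81 and 0.86 (adjusted p = 1.98e-05 and 1.37e-05). These 3 had the largest changes of the list against R7-I, and all 3 also passed after median-of-ratios scaling. The other eIF2 kinases differed. By TPM Eif2ak1 was higher by 0.17 and 0.28 (adjusted p = 0.00142 and 6.19e-05). Eif2ak2 changed by -0.40 without passing (adjusted p = 0.0154) and by -0.75 (adjusted p = 0.000391). After median-of-ratios scaling Eif2ak2 was lower in both (-0.54 and -0.85, adjusted p = 0.00421 and 0.000255) and Eif2ak1 was higher only against R7-III. Eif2ak4 passed on neither scale. Pabpc1, the poly(A)-binding protein and most abundant of the list, had TPM of 1690.4, 1679.8 and 1758 in R7-I, 1915, 1917 and 1830.1 in R7-II and 1760.7, 1743 and 1806 in R7-III. It was higher than in R7-I by 0.14 (adjusted p = 0.000964), and by -0.03 without passing after that scaling. Dhps and Dohh, the enzymes that make the hypusine of eIF5A and named here after their values were seen, were lower in R7-II by -0.48 and -0.39 against R7-I (adjusted p = 1.95e-06 and 2.78e-06) and by -0.41 and -0.30 against R7-III (adjusted p = 6.69e-06 and 1.56e-05).

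Of 9 elongation and termination factors, 3 were lower and 0 higher in R7-II with R7-I as reference (all genes: 15.5% and 40.6%), 4 were lower and 1 higher with R7-III as reference (18% and 35.6%), and 1 was lower in R7-III against R7-I (1.45%). After median-of-ratios scaling these were 7 and 0 (all genes: 28.5% and 26%), 5 and 0 (27.8% and 25.6%), and 2 (3.44%). Eef1d, part of the exchange factor of eEF1A, had TPM of 541, 551 and 529.9 in R7-I, 411, 427 and 429.5 in R7-II and 544, 534 and 528 in R7-III and changed by -0.36 and -0.34 (adjusted p = 1.37e-06 and 1.76e-06). Etf1, a release factor, had TPM of 325, 317 and 331 in R7-I, 257, 263 and 263 in R7-II and 296, 300.1 and 308 in R7-III, and Gspt1, its GTPase partner, had 158, 151 and 161 in R7-I, 134, 134 and 135 in R7-II and 155, 154 and 161 in R7-III. In both genes the R7-II libraries were the lowest, by -0.31 and -0.22 against R7-I (adjusted p = 3.57e-06 and 0.000131). Eef1a1, the most abundant of the list, was set apart in R7-III instead, with TPM of 15317, 14997 and 14519.9 in R7-I, 14524, 14135 and 14699 in R7-II and 12724, 12809 and 12561 in R7-III. R7-III lay below all other libraries (-0.23 against R7-I, adjusted p = 0.000217), and R7-II was 0.19 above it by TPM (adjusted p = 8.21e-05) and did not pass after median-of-ratios scaling (0.06). Mtif2, which brings the initiator tRNA to the mitochondrial ribosome, had TPM of 24.0, 25.1 and 24.9 in R7-I, 38.2, 37.6 and 36.9 in R7-II and 22.7, 25.3 and 26.6 in R7-III. Mtif3, the mitochondrial factor that parts the subunits, had TPM of 8.03, 7.97 and 8.45 in R7-I, 10.86, 10.34 and 10.76 in R7-II and 7.79, 7.82 and 8.80 in R7-III. Mtif2 and Mtif3 were both higher in R7-II, by 0.59 and 0.35 against R7-I (adjusted p = 6.64e-06 and 0.00083) and by 0.58 and 0.35 against R7-III (adjusted p = 8.15e-06 and 0.000823). After median-of-ratios scaling Mtif3 no longer passed against R7-I.

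The promoters of these genes were read for a pair of motifs on both strands. CACGTG, the E-box bound by Myc and related proteins, and TGATGNAA, the C/EBP-ATF response element, were searched for in the RefSeq windows of GRCm38.p6 from 250 bases before to 50 bases after each start. Windows were found for 38 of the 50 genes, and 10 of these (26.3%) held CACGTG, as did 12.4% of all genes tested that had a window. Counted by windows, it was 24.0% of 50 windows for the initiation factors, against 10.5% of the windows of genes tested and 7.15% of all 32851 windows in the reference. Of the genes lower in R7-II in both comparisons, 6 of 17 with a window held it, and 4 of the 21 others. TGATGNAA was found only in Eif2s3x, 2.63% of the 38 genes, against 2.75% of genes tested. The following stretches, with the E-box in capitals, each precede a RefSeq start of a gene that was lower in R7-II in both comparisons. For Eif4e, Eif4g1 and Eif5a this is not the outermost start. The stretches are shown because they span eIF4F, the helicase cofactor gene Eif4h and the most abundant initiation factor gene. Further matches in Eif5a and Eif4g1, and that in Eif3a, are not shown. Nor are those of the 4 genes outside the lower set, Eif1b, Eif3f, Eif3k and Eif5a2.
Eif4e, chr3:138527028-138527057, plus strand: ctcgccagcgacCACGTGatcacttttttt
Eif4e, chr3:138527192-138527221, plus strand: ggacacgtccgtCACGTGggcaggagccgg
Eif4a1, chr11:69672595-69672624, minus strand: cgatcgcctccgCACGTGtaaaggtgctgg
Eif4g1, chr16:20672661-20672690, plus strand: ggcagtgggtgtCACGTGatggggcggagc
Eif4h, chr5:134639488-134639517, minus strand: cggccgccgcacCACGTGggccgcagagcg
Eif5a, chr11:69921443-69921472, minus strand: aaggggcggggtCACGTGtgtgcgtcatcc
A match of these letters is a description of the window and does not show that a protein binds there.

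Markers of other cells moved with R7-II. The 10 CD8 T cell genes were all expressed, at a summed TPM of 2758 ± 48.8 (SD, n = 3) in R7-I, 3479 ± 10.1 in R7-II and 2997 ± 67.7 in R7-III, with Cd5 the most abundant over the 9 libraries. In R7-II Cd5 was the gene that was lower, in both comparisons (mean TPM of 545, 360.3 and 684 in R7-I, R7-II and R7-III), and Lck led with 526. Of the others 7 were higher with R7-I as reference and 8 with R7-III, where 40.6% and 35.6% of all genes were. Each of the 7 B cell genes tested was higher in both R7-II comparisons, with sums of 11.3 ± 3.53 in R7-I, 52.8 ± 18.3 in R7-II and 6.46 ± 1.37 in R7-III, led by Cd79b. The 7 MHC class II genes were likewise all higher, with sums of 38.8 ± 9.98, 158.8 ± 40.2 and 25.9 ± 2.00, led by Cd74. Of 7 myeloid genes 6 were higher in each comparison, with sums of 1.62 ± 0.754, 44.7 ± 29.0 and 3.42 ± 0.871, led by Lyz2. None of these genes was at 0 in all libraries. After median-of-ratios scaling, genes higher in R7-II against R7-I and against R7-III numbered 6 and 6 for CD8 T cells, 7 and 7 for B cells, 6 and 7 for MHC class II, and 6 and 5 for myeloid cells (26% and 25.6% of all genes). The 3 NK cell genes stayed below the filter, with Klra8 at 0. Of 6 erythroid genes 4 were tested and 0 passed, with sums of 41.9 ± 27.5 in R7-I, 6.88 ± 7.25 in R7-II and 18.9 ± 8.74 in R7-III. Of 4 CD4 T cell genes, led by Cd40lg, 2 were tested, and 1 was higher and 1 lower in R7-II than in R7-III. Cd4 and Zbtb7b stayed below the filter. R7-II replicate 2 had the lowest B cell, MHC class II and myeloid sums of its clone, 34.0, 112 and 19.9. Replicate 3 of R7-II had the highest myeloid sum, 76.55, against 37.7 in replicate 1, and weighs most in that mean. Whether other cells contributed to the differences of the initiation factors was not tested, and in sorted bulk RNA fewer cells of a type and less RNA per cell cannot be told apart.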

How the data were processed

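The 9 libraries, 3 for each clone, hold poly(A) RNA of sorted CD8 T cells, read single-end without strand. The authors ran RSEM 1.2.11 for both alignment and levels of mm10 RefSeq genes, without naming the aligner it called, and deposited them as TPM with 2 decimals; their own tests used DESeq2 1.8.1 on counts, which were not used here. TPM keeps no depth, so no counting error is given. Genes with a maximum TPM above 1 were tested on log2(TPM + 1) with limma 3.58.1 in R 4.3.3 (lmFit, eBayes with a trend), all libraries in 1 fit, Benjamini-Hochberg adjustment over all 11330 genes and a threshold of 0.01. Fold changes on this scale understate those of low genes. The fit was tested on simulated data. Sums, ratios and shares were computed in Python 3.11.15 and carry no test. The genes and lists were chosen with earlier results of these data known. Values in every library are given for the 4 largest changes past the threshold in each direction and comparison, the most abundant gene of each role, X-linked genes and the paralogs Eif1a, Eif4a2 and Eif4g3; of pathway lists, the 3 largest such changes in R7-II against R7-I and the most abundant gene. Shared windows were counted over GENCODE M21 protein-coding transcripts against genes of the table. Alternatives were other pseudocounts (0.1 and 5), filters, scalings, moderation and thresholds, a fit of just the 2 clones in question, a block for replicate number, and each library left out in turn; summing Eif3j1 and Eif3j2 was added after seeing the data.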

Additional observations from a re-analysis of the deposited data

How the results depend on the processing

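Of 60 calls by TPM over the 3 comparisons, 42 held in every alternative, 10 were lost with some library left out and 4 changed sign. Median-of-ratios scaling moved the counts most: for R7-II against R7-I, higher from 5 to 1 and lower from 24 to 37; for R7-II against R7-III, higher from 7 to 2 and lower from 22 to 34; for R7-III against R7-I, lower from 2 to 9. Among genes that passed on either scale in the comparison, it gave log2 fold changes of opposite sign for Eif1 (-0.13 with R7-I as reference, -0.11 with R7-III), Eif2a (-0.12 with R7-III), Eif3e (-0.16 with R7-I, -0.0027 with R7-III) and, against R7-I, Eif4a2 (-0.0155), Eif4ebp2 (-0.0108), Eif4g3 (-0.0147) and Eif5 (-0.14). Genes that passed on neither scale changed sign too, and those above 0 fell from 14 to 4 with R7-I as reference and from 14 to 7 with R7-III; this scaling by construction removes the shift of the all-gene median. Summed with Eif3j2, Eif3j1 changed from 1.84 to -0.27 against R7-I. Quantile normalization and a threshold of 0.05 each gave 8 genes higher for R7-II against R7-I, and moderation without a trend 3, with 4 higher than in R7-III. Between R7-III and R7-I, 1 gene was higher with only the clones compared and at a threshold of 0.05, and those lower were 1 without a filter, 1 without a trend and 8 at 0.05; the causes were not tested. With each library left out, the higher genes for R7-II against R7-I numbered 3 to 6 (3 without R7-I replicate 1 or 2 or R7-II replicate 1) and lower 22 to 24, those against R7-III 5 to 8 higher and 21 to 23 lower, and in R7-III against R7-I 0 to 1 were higher (1 without R7-II replicate 2) and 0 to 3 lower (0 without replicate 1 or 2 of R7-I or of R7-III). No pairing by replicate number was seen: correlations of same-numbered deviations lay between -0.0449 and 0.0888, and of different-numbered ones between -0.0948 and 0.0649. With 3 libraries a clone this check cannot exclude a pairing. With the replicate block 1 gene was lower in R7-III than in R7-I, and the calls of Eif3d (R7-II against R7-I), Eif3a (R7-II against R7-III) and Eif4a1 (R7-III against R7-I) were lost. Quantile normalization lost these 3 calls as well and those of Eif3a, Eif3i, Eif4a3 and Eif4h for R7-II against R7-I and of Eif3c for R7-II against R7-III. Moderation without a trend lost Eif3a, Eif3d, Eif4a2 and Eif4g3 (R7-II against R7-I), Eif3a, Eif3e, Eif3f and Eif5 (R7-II against R7-III) and Eif4a1 (R7-III against R7-I). Fitting only the clones compared lost Eif3a, Eif3d and Eif4g3 (R7-II against R7-I) and Eif3a and Eif5 (R7-II against R7-III). Leaving out the filter lost Eif3a, Eif3f and Eif5 (R7-II against R7-III) and Eif4a1 (R7-III against R7-I). TPM holds no read numbers, so the precision that depth sets for low genes such as Eif4e3 is unknown.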
